A study of Mus musculus with 6 samples.

Results

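The genes described here are those of heterotrimeric G protein signalling and its cAMP arm in CAD cells. They were taken from the deposited table by symbol: the G alpha, G beta and G gamma subunits, the regulators of G protein signalling (RGS), the adenylyl cyclases, the subunits of cAMP-dependent protein kinase (PKA), the thrombin-type receptors F2r and F2rl1, the beta-arrestins Arrb1 and Arrb2 and the receptor kinases Grk5 and Grk6. The symbol patterns matched 77 of 24318 genes, and they do not take Gnaq. The table held 6 RNA-seq libraries of CAD cells, a mouse catecholaminergic neuronal line. The labels used here give the line and the siRNA, and no genotype or time after treatment. One group of 3 libraries came from cells given an siRNA named for circGIGYF2, a circular RNA made from exons of the Gigyf2 gene (siCircGigyf2), and the other 3 from cells given a control siRNA (siNC). The design text calls the first group a knockdown, so the comparison asks which genes differ when this circular RNA is targeted, and the level of the circular RNA itself was not analysed here. All 6 libraries come from 1 cell line. Values were FPKM, in which fragments are scaled to transcript length and to library size, so levels of different genes can be set side by side per length.

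A heterotrimeric G protein holds a G alpha subunit, which binds GTP, and a paired G beta and G gamma. An activated receptor loads G alpha with GTP, and both G alpha and the G beta-gamma pair then act on effectors. G alpha of the Gs class stimulates adenylyl cyclase, that of the Gi/o class inhibits it, that of the Gq class activates phospholipase C beta, and that of the G12/13 class activates a class of guanine nucleotide exchange factors. RGS proteins speed the hydrolysis of GTP and so end the signal. cAMP made by adenylyl cyclase binds the regulatory subunits of PKA and frees its catalytic subunits. In neurons, receptors of the Gi/o class for transmitters and peptides use these parts to set excitability and release.

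FPKM summed to between 578627 and 624645 per library, and judged by the spacing of low values the siCircGigyf2 libraries had 0.802 to 0.914 of the depth of siNC replicate 1, against 0.953 and 0.980 for siNC replicates 3 and 2. The absolute number of fragments is unknown. Gigyf2, the host gene, averaged 21.4 ± 0.330 against 23.2 ± 0.0749 FPKM (SD, n = 3; here and below siCircGigyf2 first) and fell by 0.11 in log2(FPKM + 1) (SE 0.0329, adjusted p = 0.0287); fragments of the circular form can fall in this row. Of 16 catecholaminergic markers, 12 reached a mean of 1 FPKM, but Slc6a2 was listed at 0 and Slc6a3 and Ddc stayed below 1. The 16 markers summed to 1363 to 1406 FPKM in the siCircGigyf2 and 1447 to 1475 FPKM in the siNC libraries. At an adjusted p under 0.05, 3 were higher and 5 lower, where 19.5% of all genes tested were higher and 18.7% lower. Most of the sum was Chgb, which fell (979 ± 17.3 against 1081 ± 20.6 FPKM), whereas Gch1, Slc18a1 and Hand2 rose. Th and Dbh were low, at 3.28 against 4.24 and 1.14 against 1.77 FPKM, and only Dbh passed. Of 10 neuronal markers, 7 reached 1 FPKM, with a sum of 523 to 534 against 430 to 434 FPKM. Of these, 4 rose and 0 fell, where 38.2% of all genes tested passed. Astrocyte markers summed to at most 0.202 FPKM, with 4 of 6 at 0. Oligodendrocyte markers summed to at most 1.26 FPKM, with 2 of 6 at 0. Microglial markers summed to 0.632 to 1.15 against 1.42 to 1.69 FPKM, with 3 of 7 at 0. Most of that sum was Tmem119, which fell (0.694 ± 0.225 against 1.44 ± 0.199 FPKM). Aif1 went the other way near the floor, at 0.162 ± 0.0729 against 0.0234 ± 0.0405 FPKM. The sums were 3.40 to 4.13 FPKM for fibroblast, 5.95 to 7.19 for endothelial and 2.05 to 2.82 against 1.29 to 1.42 for epithelial markers. The part of depth and of these markers in the differences below was not tested. Since no label tells whether replicates were grown separately, the p-values cover the spread between these libraries, which may be technical.

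Of the 77 genes, 45 had a mean of at least 1 FPKM and were tested with limma among 11420 genes. Of these 45, 10 rose and 7 fell at an adjusted p under 0.05. In such bulk RNA, fewer cells with a transcript and less of it per cell cannot be told apart. The share of all genes tested that passed was 38.2%, with 19.5% higher and 18.7% lower, and the 17 of 45 here (37.8%) lie close to it. The groups of libraries did not overlap for 24 of the 45, where 51% of all genes tested did the same. The median difference on the log2(FPKM + 1) scale, siCircGigyf2 minus siNC, was 0.00047 for the 45 and 0.00035 for all genes tested, and the median size without sign was 0.13 and 0.12. A difference of at least 1.5-fold on the log2(FPKM + 1) scale that passed the test was seen for 3 of the 45, Prkar2b, Gng10 and F2r, all lower, where 1.4% of all genes tested had one in either direction. That scale understates folds of low genes, and as a ratio of mean FPKM Gngt2 also passed 1.5-fold, at 1.53, in the higher direction. The other 32 genes had a mean below 1 FPKM, and 10 of them were listed at 0 in all 6 libraries.

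**Figure D1:**
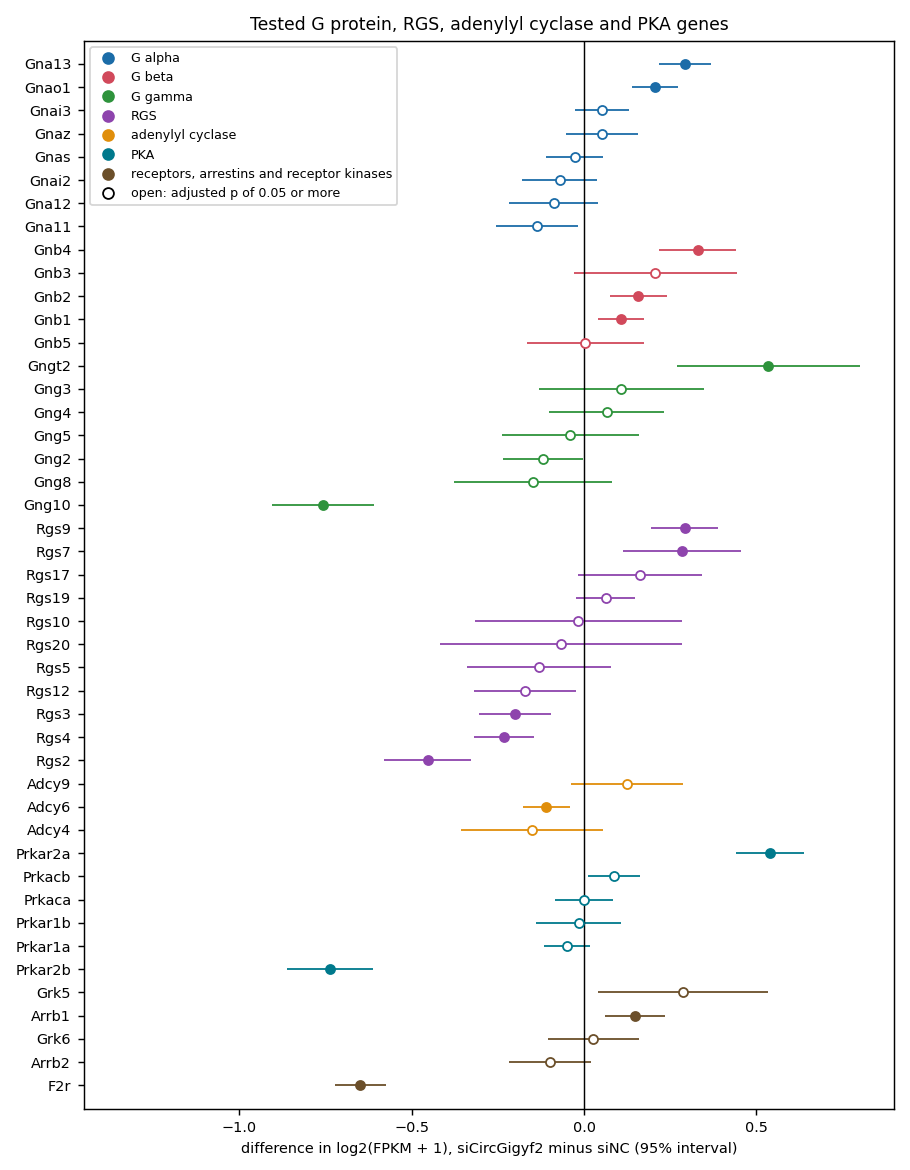
Difference in log2(FPKM + 1), siCircGigyf2 minus siNC, with its 95% interval from limma (x axis) for the 45 tested genes (y axis), coloured by role; filled points passed an adjusted p of 0.05. Prkar2b, Gng10 and F2r lie furthest to the left and Prkar2a and Gngt2 furthest to the right.

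**Figure D2:**
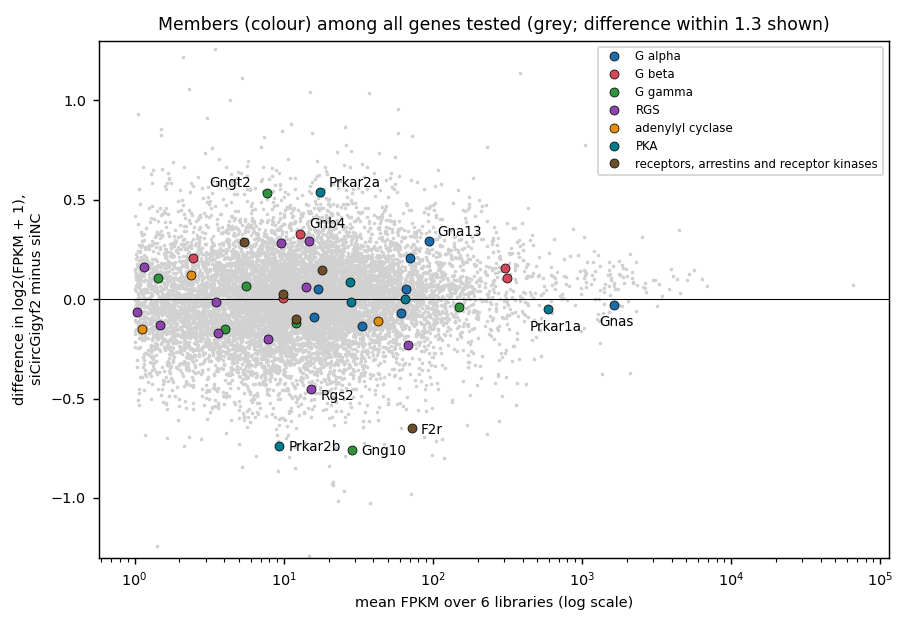
Mean FPKM over 6 libraries (x axis, log scale) against the difference in log2(FPKM + 1), siCircGigyf2 minus siNC (y axis), for the 45 tested genes in colour and other genes tested in grey. Gnas and Prkar1a, the 2 most abundant of the 45, lie near 0.

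A sequence found in 3 of the 7 members that fell is shown first. The 7 bases GCCTACA, a site picked earlier in these same data for its relation to falls, occurred in the annotated 3' UTR of 4 of the 45 tested members (8.89%), against 791 of 10906 tested genes searched (7.25%). The median length of the 3' UTRs searched was 1913 bases for these members and 1176 for the genes tested. Because the site was picked from these differences, its match to falls here is no independent support. The 4 sites are printed with the site in capitals and 10 bases on each side, 5′ to 3′ on the transcript strand, from GENCODE M21 on build GRCm38; the deposited values were made on mm9.
F2r: atgcccttcaGCCTACAaaattacaca
Gng10: tttaaatgtgGCCTACAattagaacat
Rgs4: taagctacatGCCTACAtctgtaaagc
Rgs17: gtaaaggaatGCCTACAtgtagcactg
They lie in 3' UTR sequence at chr13:95602438-95602464 on the minus strand in exon 2 of F2r, at chr4:59041688-59041714 on the plus strand in exon 3 of Gng10, at chr1:169742462-169742488 on the minus strand in exon 5 of Rgs4, and at chr10:5831866-5831892 on the minus strand in exon 6 of Rgs17. In F2r and Gng10 the site is followed by an A, and in Rgs4 and Rgs17 it is not. F2r, Gng10 and Rgs4 fell, whereas Rgs17 had a log2 difference of 0.16 (95% interval -0.018 to 0.34, adjusted p = 0.139). The 3' UTRs of the other 4 members that fell, Prkar2b, Rgs2, Rgs3 and Adcy6, held no GCCTACA, nor did those of the 10 that rose. Among the 791 tested genes with the site, 296 fell and 108 rose, beside 18.7% lower and 19.5% higher over all genes tested, an excess of falls that the choice of the site built in. The cAMP response element TGACGTCA, a palindrome searched from 250 bases before to 50 after the start in RefSeq promoters of GRCm38.p6, was found for 1 of the 36 tested members that have an entry (2.78%), Prkar1a, and for 3.96% of tested genes with an entry.

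The thrombin receptor gene fell by more than any other member relative to its spread. F2r encodes PAR1, which thrombin activates by cutting its extracellular end and which couples to Gq, G12/13 and Gi/o proteins. It was at 56.2, 55.6 and 56.2 FPKM with siCircGigyf2 and 88.9, 85.1 and 91.1 FPKM with siNC. The siCircGigyf2 libraries lay within 1 FPKM of each other, and every one was far below the lowest siNC library. F2r averaged 56.0 ± 0.331 against 88.4 ± 3.00 FPKM, a ratio of 0.634, and fell by 0.65 in log2(FPKM + 1) (SE 0.0322, adjusted p = 7.86e-06). F2rl1, which encodes PAR2, was listed at 0 in all 6 libraries. F2rl2, a related receptor gene outside the list and named after its value was seen, averaged 6.47 ± 0.484 against 7.52 ± 0.351 FPKM and fell by 0.19 in log2(FPKM + 1) (SE 0.0629, adjusted p = 0.0397).

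Of 8 G alpha genes tested, 2 rose and 0 fell, beside 19.5% higher and 18.7% lower over all genes tested. Gna13, a G12/13 subunit that acts on guanine nucleotide exchange factors, was at 106, 102 and 101 FPKM with siCircGigyf2 and 86.9, 81.9 and 83.8 FPKM with siNC. All siCircGigyf2 values were above all siNC values, and it rose by 0.29 in log2(FPKM + 1) (SE 0.0336, adjusted p = 0.000247). Gna12, the other member of that class, was at 15.5 ± 1.11 against 16.6 ± 0.811 FPKM, a log2 difference of -0.088 (95% interval -0.22 to 0.042, adjusted p = 0.256). Gnao1, the Gi/o subunit that is abundant in neurons, was at 75.0, 75.5 and 76.3 FPKM with siCircGigyf2 and 67.2, 64.0 and 65.0 FPKM with siNC. Its groups did not overlap either, and it rose by 0.21 in log2(FPKM + 1) (SE 0.0296, adjusted p = 0.000782).

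The other Gi/o subunits did not pass. Gnai2 averaged 59.8 ± 2.17 against 63.0 ± 3.99 FPKM, a log2 difference of -0.071 (95% interval -0.18 to 0.038, adjusted p = 0.274). Gnai3 averaged 67.0 ± 2.35 against 64.6 ± 1.51 FPKM, a log2 difference of 0.052 (95% interval -0.028 to 0.13, adjusted p = 0.273), and Gnaz had a log2 difference of 0.052 (95% interval -0.052 to 0.16, adjusted p = 0.405). Within the summed FPKM of the Gi/o class, Gnao1 held 34.4%, 34.5% and 34.1% with siCircGigyf2 and 30.9%, 31.5% and 30.8% with siNC. Gnai2 held 26.3%, 28.1% and 27.1% with siCircGigyf2 and 30.8%, 29.0% and 29.9% with siNC. Gnao1 had the highest level of the class in all 6 libraries, and within each siNC library Gnao1, Gnai2 and Gnai3 lay within 6 FPKM of each other.

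Gnas, whose row may pool transcripts of the Gs alpha subunit and of other promoters of an imprinted locus, was the most abundant member. It was at 1651, 1603 and 1628 FPKM with siCircGigyf2 and 1673, 1622 and 1682 FPKM with siNC, with overlapping groups and a log2 difference of -0.028 (95% interval -0.11 to 0.054, adjusted p = 0.580). Of the summed FPKM of the 15 G alpha members, it held 81.6%, 81.2% and 81.4% with siCircGigyf2 and 82.4%, 82.9% and 82.8% with siNC. After quantile normalization, however, it passed with a difference of -0.095 (adjusted p = 0.0118). Gna11, the only 1 of 3 Gq subunits among the members that was tested, averaged 32.0 ± 0.801 against 35.4 ± 2.68 FPKM, a log2 difference of -0.14 (95% interval -0.26 to -0.016, adjusted p = 0.0709). It passed after quantile normalization (-0.14, adjusted p = 0.0447) and without siNC replicate 2 (-0.20, adjusted p = 0.00726). Gnaq, its close relative outside the list, was at 23.96 ± 0.896 against 22.3 ± 0.322 FPKM, a log2 difference of 0.098 (95% interval 0.011 to 0.18, adjusted p = 0.0722). The other 7 G alpha genes were not tested. Gnal, the olfactory Gs relative, was at 0.389 to 0.650 FPKM, and Gnai1, Gnat1, Gna14 and Gna15 were below 0.1 FPKM in all libraries. Gnat3 was listed at 0. Gnat2, the cone transducin gene, was at 0.297, 0.362 and 0.344 FPKM with siCircGigyf2 and 0.553, 0.760 and 1.04 FPKM with siNC, and in a fit with no filter on low values it was lower by 0.41 on the log2(FPKM + 1) scale (adjusted p = 0.0270).

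Of 5 G beta genes, 3 rose and 0 fell, a small count beside 19.5% higher and 18.7% lower over all genes tested. Gnb1 and Gnb2 encode the common G beta subunits. Gnb1 was at 327, 319.8 and 331 FPKM with siCircGigyf2 and 300.4, 298 and 309 FPKM with siNC, and Gnb2 at 316, 332 and 320.1 FPKM with siCircGigyf2 and 292, 277 and 299.8 FPKM with siNC. Neither gene's groups overlapped. Gnb1 rose by 0.11 in log2(FPKM + 1) (SE 0.0292, adjusted p = 0.0182) and Gnb2 rose by 0.16 in log2(FPKM + 1) (SE 0.0370, adjusted p = 0.00928). Gnb1 did not pass with no variance trend (adjusted p = 0.0545), nor when siCircGigyf2 replicate 3 (0.0640), siNC replicate 1 (0.0738) or siNC replicate 2 (0.0514) was left out.

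Gnb4, a less abundant G beta, had the largest rise of the class. It was at 14.3, 14.7 and 14.3 FPKM with siCircGigyf2 and 10.5, 11.8 and 11.6 FPKM with siNC. The siCircGigyf2 libraries lay within 0.4 FPKM of each other and above every siNC library, and the gene rose by 0.33 in log2(FPKM + 1) (SE 0.0497, adjusted p = 0.00102). Mfn1, which overlaps it in RefSeq, was at 9.27 ± 0.380 against 8.59 ± 0.288 FPKM, a log2 difference of 0.099 (95% interval -0.014 to 0.21, adjusted p = 0.148). Gnb3, at 2.72 ± 0.425 against 2.22 ± 0.285 FPKM, had a log2 difference of 0.21 (95% interval -0.030 to 0.44, adjusted p = 0.150) and passed without siCircGigyf2 replicate 3 (0.30, adjusted p = 0.0414). Gnb5, the divergent G beta that pairs with RGS proteins of the R7 family, averaged 9.87 ± 0.135 against 9.89 ± 1.23 FPKM, a log2 difference of 0.0039 (95% interval -0.17 to 0.17, adjusted p = 0.973). Summed over the 5 genes, G beta FPKM were 671, 679 and 677 with siCircGigyf2 and 615, 597 and 633 with siNC, a ratio of means of 1.10. Gnb1 and Gnb2 made up nearly all of that sum, at 48.2% and 47.8% in the siCircGigyf2 libraries and 49.2% and 47.0% in the siNC libraries.

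Of 7 G gamma genes tested, 1 rose and 1 fell, where 38.2% of all genes tested passed. Gng10 was at 18.9, 22.9 and 21.7 FPKM with siCircGigyf2 and 35.7, 35.1 and 38.3 FPKM with siNC. Even the highest siCircGigyf2 library was well below the lowest siNC library. The gene averaged 21.2 ± 2.04 against 36.3 ± 1.69 FPKM, a ratio of 0.582, and fell by 0.76 in log2(FPKM + 1) (SE 0.0655, adjusted p = 6.51e-05). Gngt2, first known as the G gamma of cone transducin, was at 8.78, 8.10 and 11.1 FPKM with siCircGigyf2 and 7.11, 5.88 and 5.33 FPKM with siNC. Its groups did not overlap, although the siCircGigyf2 libraries differed by up to 3 FPKM, and it rose by 0.53 in log2(FPKM + 1) (SE 0.117, adjusted p = 0.00671). Abi3, which overlaps Gngt2 in RefSeq, was at 0.951 ± 0.231 against 0.871 ± 0.126 FPKM and was not tested.

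Gng5 was the most abundant G gamma gene. It was at 161, 127 and 158 FPKM with siCircGigyf2 and 151, 142 and 164 FPKM with siNC, with siCircGigyf2 replicate 2 the lowest of all, and had a log2 difference of -0.040 (95% interval -0.24 to 0.16, adjusted p = 0.750). That difference turned to 0.070 without siCircGigyf2 replicate 2 and to 0.014 without siNC replicate 3, and passed in neither case. Of the summed G gamma FPKM, Gng10 held 8.85%, 12.6% and 10.02% with siCircGigyf2 and 16.2%, 16.98% and 16.4% with siNC. Gngt2 held 4.11%, 4.47% and 5.12% with siCircGigyf2 and 3.24%, 2.85% and 2.28% with siNC. Of the members that did not pass, Gng2 had a log2 difference of -0.12 (95% interval -0.23 to -0.0017, adjusted p = 0.101) and passed without siCircGigyf2 replicate 3 (-0.16, adjusted p = 0.0435). Gng3, Gng4 and Gng8 had differences of 0.11, 0.066 and -0.15, with adjusted p from 0.278 to 0.512. Gng7, Gng11, Gng12 and Gng13 averaged less than 1 FPKM, and Gngt1 was listed at 0.

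**Figure D3:**
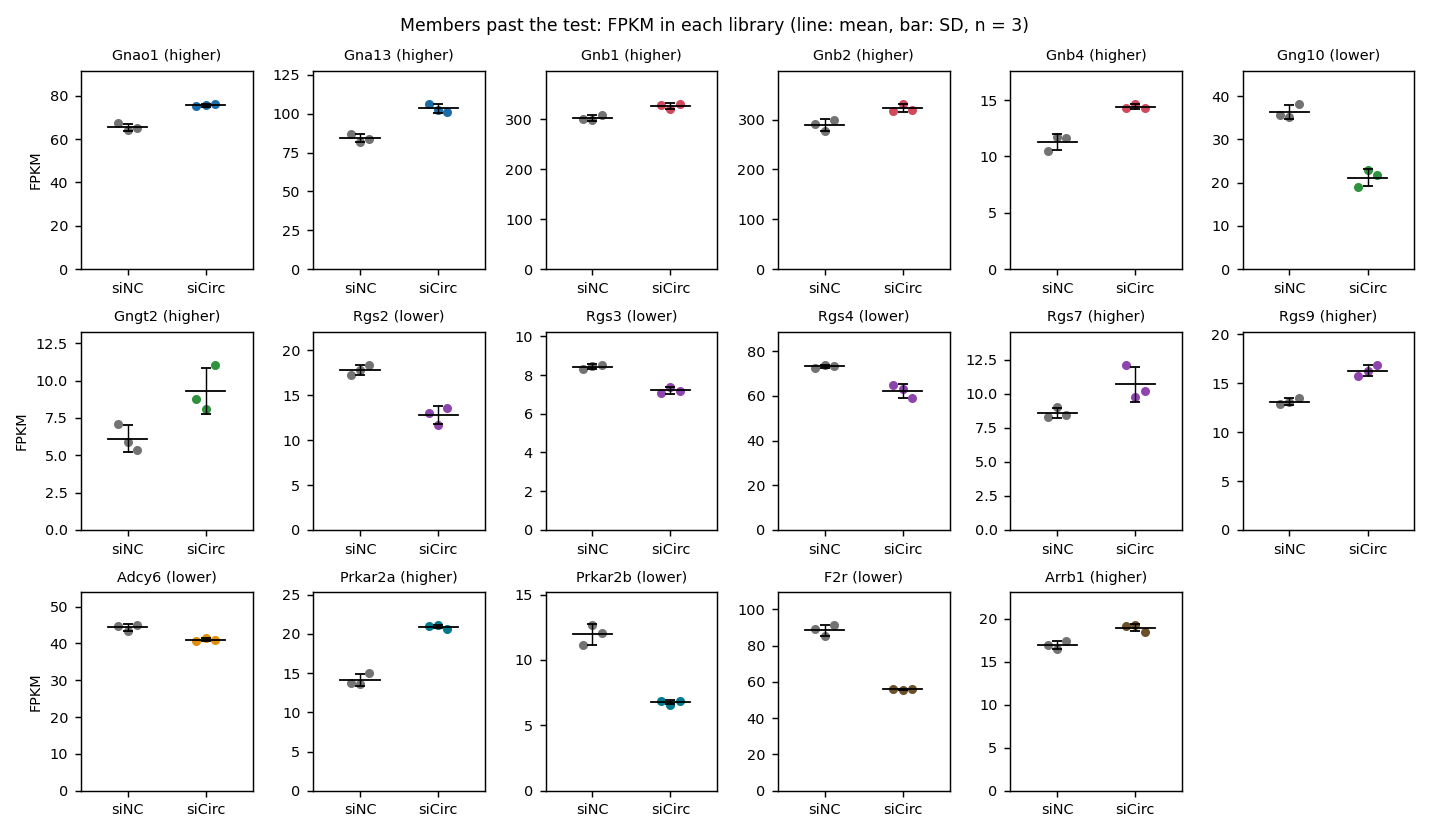
FPKM (y axis, from 0) in each library for the 17 genes that passed the test, with siNC libraries in grey and siCircGigyf2 libraries in colour; lines are means and bars SDs (n = 3). The groups do not overlap in any panel, and the gap is widest relative to the spread for F2r, Prkar2a and Prkar2b.

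Of 11 RGS genes tested, 2 rose and 3 fell, where 19.5% of all genes tested rose and 18.7% fell. The 3 that fell belong to the R4 subfamily, of which 4 were tested and whose proteins act on Gi/o and Gq subunits. Rgs2, which acts on Gq, was at 12.999, 11.7 and 13.6 FPKM with siCircGigyf2 and 17.3, 17.8 and 18.4 FPKM with siNC. Its siCircGigyf2 values lay at least 3 FPKM below the siNC values, and it fell by 0.45 in log2(FPKM + 1) (SE 0.0561, adjusted p = 0.000362). Rgs4, the most abundant RGS gene, was at 65.1, 63.0 and 59.0 FPKM with siCircGigyf2 and 72.7, 74.0 and 73.3 FPKM with siNC, and it fell by 0.23 in log2(FPKM + 1) (SE 0.0382, adjusted p = 0.00161). Rgs3 was at 7.05, 7.39 and 7.18 FPKM with siCircGigyf2 and 8.29, 8.45 and 8.54 FPKM with siNC, and it fell by 0.20 in log2(FPKM + 1) (SE 0.0461, adjusted p = 0.00853). Rgs5, the remaining R4 gene tested, had a log2 difference of -0.13 (95% interval -0.34 to 0.078, adjusted p = 0.294). The summed FPKM of the R4 subfamily were 86.5, 83.7 and 81.0 with siCircGigyf2 and 99.9, 102 and 102 with siNC. The other 6 R4 genes were not tested: Rgs1, Rgs8, Rgs13, Rgs18 and Rgs21 were listed at 0, and Rgs16 was above 0 in 1 library.

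The R7 subfamily, whose proteins form stable complexes with the G beta subunit Gnb5, held both rises, with 2 of 2 tested. With 38.2% of all genes tested passing, so few genes cannot set a subfamily apart. Rgs9 was at 15.7, 16.3 and 16.9 FPKM with siCircGigyf2 and 12.9, 13.04 and 13.5 FPKM with siNC. No siNC library reached the lowest siCircGigyf2 library, and the gene rose by 0.29 in log2(FPKM + 1) (SE 0.0426, adjusted p = 0.000862). Rgs7 was at 12.2, 9.77 and 10.2 FPKM with siCircGigyf2 and 8.29, 9.02 and 8.45 FPKM with siNC, with siCircGigyf2 replicate 1 well above the other 2, and it rose by 0.28 in log2(FPKM + 1) (SE 0.0753, adjusted p = 0.0166). The call for Rgs7 was lost without siNC replicate 1 (adjusted p = 0.0526) and with no filter on low values (0.0521). Rgs11, another R7 gene, was at 0.855, 0.706 and 0.596 FPKM with siCircGigyf2 and 1.12, 0.805 and 0.954 FPKM with siNC and below the level for testing, and Rgs6 was above 0 in 1 library. The summed FPKM of R7 genes were 28.7, 26.8 and 27.7 with siCircGigyf2 and 22.3, 22.9 and 22.9 with siNC. Rgs9bp, which encodes a membrane anchor for Rgs9, was at 0.396, 0.464 and 0.277 FPKM with siCircGigyf2 and 0.508, 0.480 and 0.622 FPKM with siNC. Its groups did not overlap, in the lower direction, but it was below the level for testing. Rgs7bp was listed at 0.

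No gene of the R12 and RZ subfamilies passed. Rgs12, at 3.33 ± 0.0495 against 3.88 ± 0.265 FPKM, had a log2 difference of -0.17 (95% interval -0.32 to -0.024, adjusted p = 0.0655), and passed with no variance trend (adjusted p = 0.0303) and without siNC replicate 2 (0.0459). Rgs10 had a log2 difference of -0.016 (95% interval -0.32 to 0.29, adjusted p = 0.937). The RZ genes Rgs19 and Rgs20 had differences of 0.062 and -0.067. Rgs17, of the same subfamily, had a difference of 0.16 and passed with no variance trend (adjusted p = 0.0109). The groups did not overlap for Rgs12, lower with siCircGigyf2, or for Rgs17 and Rgs19, both higher, as for 51% of all genes tested. Rgs14 was at 0.0434 to 0.229 FPKM and Rgs22 was listed at 0. The difference between subfamilies was not tested.

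Among adenylyl cyclases, 1 gene accounted for most of the RNA. Adcy6, a form that Gi/o subunits and calcium inhibit, was at 40.8, 41.4 and 41.0 FPKM with siCircGigyf2 and 44.8, 43.4 and 44.9 FPKM with siNC. Its groups did not overlap, and it fell by 0.11 in log2(FPKM + 1) (SE 0.0300, adjusted p = 0.0190). The call was lost when siNC replicate 1 (adjusted p = 0.0730) or siNC replicate 3 (0.0691) was left out. Of the summed cyclase FPKM, Adcy6 held 89.4%, 88.9% and 89.8% with siCircGigyf2 and 90.0%, 89.7% and 90.5% with siNC. Adcy9 averaged 2.54 ± 0.111 against 2.25 ± 0.148 FPKM, a log2 difference of 0.12 (95% interval -0.039 to 0.29, adjusted p = 0.204), and Adcy4 1.01 ± 0.0731 against 1.24 ± 0.155 FPKM, a log2 difference of -0.15 (95% interval -0.36 to 0.054, adjusted p = 0.217). The groups did not overlap for either. Adcy1, Adcy3 and Adcy7 lay between 0.194 and 0.622 FPKM, and Adcy2, Adcy5, Adcy8 and the soluble cyclase Adcy10 stayed below 0.1 FPKM.

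The type II regulatory subunits of PKA moved in opposite directions. These subunits bind anchoring proteins and hold the kinase at membranes and the cytoskeleton. Prkar2a, which encodes RII alpha, was at 21.03, 21.1 and 20.7 FPKM with siCircGigyf2 and 13.7, 13.7 and 14.97 FPKM with siNC. Prkar2b, which encodes RII beta, the form prominent in neurons, was at 6.85, 6.58 and 6.86 FPKM with siCircGigyf2 and 11.1, 12.6 and 12.1 FPKM with siNC. For both genes the groups were far apart compared with the spread within them. Prkar2a rose by 0.54 in log2(FPKM + 1) (SE 0.0439, adjusted p = 5.04e-05), a ratio of means of 1.48. Prkar2b fell by 0.74 in log2(FPKM + 1) (SE 0.0549, adjusted p = 3.70e-05), a ratio of 0.566. The ratio of Prkar2a to Prkar2b FPKM was 3.07, 3.21 and 3.02 with siCircGigyf2 and 1.23, 1.08 and 1.24 with siNC. Their summed FPKM was 27.9, 27.7 and 27.6 with siCircGigyf2 and 24.8, 26.3 and 27.1 with siNC, a ratio of means of 1.06, so the make-up of the pair differed far more than its total.

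Type I regulatory subunits and the catalytic subunits did not pass. Prkar1a, the type I subunit that made up most of the PKA RNA, was at 586, 569.9 and 577 FPKM with siCircGigyf2 and 602, 591 and 602 FPKM with siNC. All siCircGigyf2 values were below all siNC values, with a log2 difference of -0.050 (95% interval -0.12 to 0.016, adjusted p = 0.207). After quantile normalization Prkar1a passed, at -0.14 (adjusted p = 0.000886). Prkar1b averaged 27.9 ± 1.12 against 28.3 ± 2.15 FPKM, a log2 difference of -0.016 (95% interval -0.14 to 0.11, adjusted p = 0.844). The main catalytic subunit gene Prkaca averaged 65.4 ± 2.41 against 65.3 ± 2.14 FPKM, a log2 difference of 0.00047 (95% interval -0.084 to 0.085, adjusted p = 0.993). Prkacb, the other catalytic gene, was at 28.6, 28.9 and 29.3 FPKM with siCircGigyf2 and 26.7, 27.0 and 27.8 FPKM with siNC, and had a log2 difference of 0.087 (95% interval 0.012 to 0.16, adjusted p = 0.0658). The ratio of regulatory to catalytic FPKM was 6.94, 6.75 and 6.48 with siCircGigyf2 and 6.93, 7.11 and 7.13 with siNC, with overlapping groups.

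**Figure D4:**
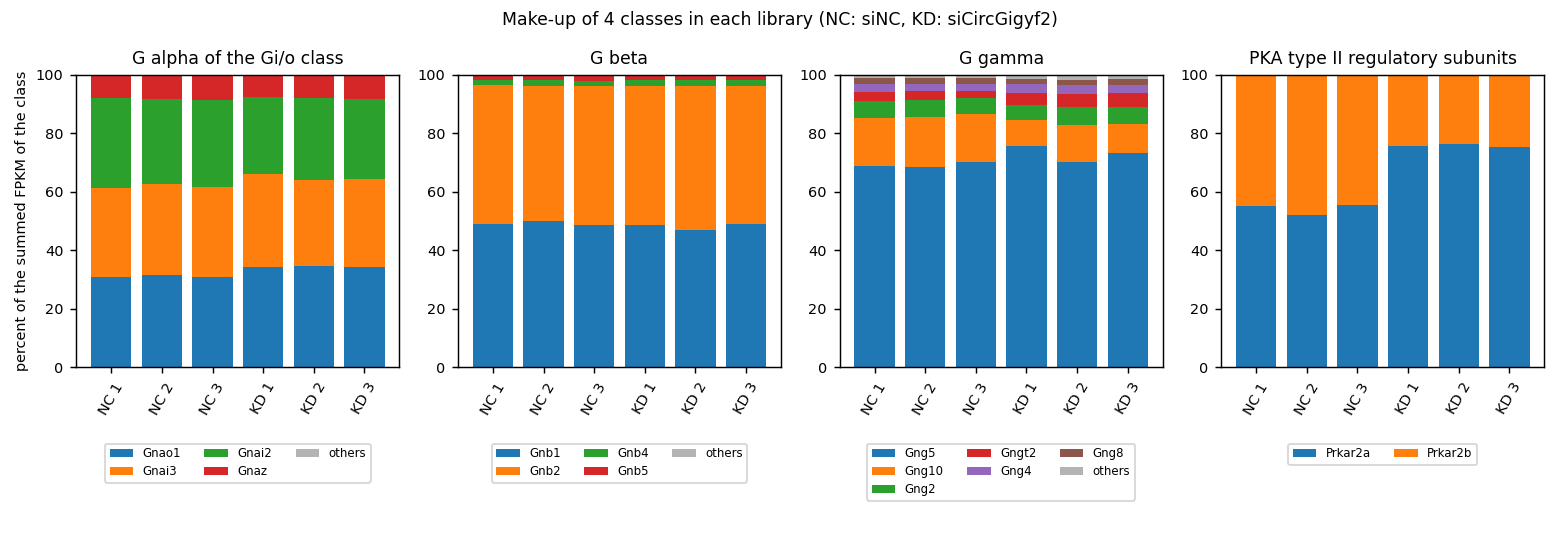
Percent of the summed FPKM of a class held by each gene (y axis) in each library (x axis; NC, siNC; KD, siCircGigyf2) for Gi/o G alpha, G beta, G gamma and PKA type II regulatory genes. Prkar2a holds between 75.1% and 76.2% of type II FPKM in the siCircGigyf2 libraries and between 52.0% and 55.3% in the siNC libraries, and Gng10 holds a smaller share of G gamma FPKM in every siCircGigyf2 library.

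Arrestins and receptor kinases switch off activated receptors. Of the 5 receptor, arrestin and receptor kinase genes tested, 1 rose and 1, F2r, fell, where 38.2% of all genes tested passed. Arrb1, beta-arrestin 1, was at 19.1, 19.2 and 18.5 FPKM with siCircGigyf2 and 16.97, 16.5 and 17.4 FPKM with siNC. Its groups did not overlap, and it rose by 0.15 in log2(FPKM + 1) (SE 0.0383, adjusted p = 0.0143), a call that was lost without siNC replicate 2 (adjusted p = 0.0532). Arrb2 averaged 11.7 ± 0.306 against 12.6 ± 0.822 FPKM, a log2 difference of -0.099 (95% interval -0.22 to 0.021, adjusted p = 0.170). Grk5 averaged 6.03 ± 0.519 against 4.798 ± 0.923 FPKM, a log2 difference of 0.29 (95% interval 0.041 to 0.53, adjusted p = 0.0650). It passed after quantile normalization (adjusted p = 0.0490) and without siNC replicate 3 (0.41, adjusted p = 0.00887). Grk6 had a log2 difference of 0.027 (95% interval -0.10 to 0.16, adjusted p = 0.740).

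Other genes of the pathway, in 7 lists, were read from the same fit. Over all lists, 81 genes were tested that are not among the 77, with 17 higher and 21 lower, a median difference of -0.028, beside the 38.2% of all genes tested. Of 12 G protein chaperones and non-receptor regulators, 1 rose and 6 fell (median -0.13). Pdcl, which helps G beta-gamma assemble, was at 20.4 ± 0.751 against 25.8 ± 0.368 FPKM and fell by 0.33 in log2(FPKM + 1) (SE 0.0378, adjusted p = 0.000247). Adrbk2, the receptor kinase GRK3, Gprasp2, a receptor-sorting protein, and Gpsm2, a Gi/o-binding protein of spindle orientation, fell by 0.24, 0.31 and 0.26 on that scale, and so did Gpsm1 and Gprasp1, by 0.29 and 0.11. Gpsm1, Gprasp1 and the gene that rose were named after their values were seen; the latter was Ric8 (Ric8a in current naming), a chaperone of G alpha, at 20.01 ± 1.47 against 16.9 ± 0.224 FPKM.

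Genes that hold PKA, or degrade or read cAMP, changed in both directions (sizes are in log2(FPKM + 1)). So did all genes tested, of which 19.5% rose and 18.7% fell. Of 13 tested PKA anchoring and inhibitor genes, 2 rose and 3 fell (median -0.034). Akap5, which anchors type II PKA at synapses, was at 2.64 ± 0.174 against 4.27 ± 0.212 FPKM and fell by 0.54 in log2(FPKM + 1) (SE 0.0678, adjusted p = 0.000415). Akap11, which also binds PKA regulatory subunits, was at 15.9 ± 0.289 against 19.9 ± 0.575 FPKM and fell by 0.31. The PKA inhibitor gene Pkia and Akap13 rose by 0.24 and 0.15 (adjusted p = 0.0318 and 0.0407), calls that were lost with the replicate number as a block (adjusted p = 0.0627 and 0.0714) and with no filter on low values. With a library left out, Pkia passed only without replicate 2 of either group (the other 4 gave 0.0700 to 0.101), and Akap13 only without siCircGigyf2 replicate 1 (the other 5 gave 0.0691 to 0.117). Akap7, named after its value was seen, fell by 0.17. Of 8 cAMP phosphodiesterases, 1 rose and 2 fell. Pde4b was at 28.7 ± 1.61 against 24.9 ± 0.544 FPKM and rose by 0.20, whereas Pde2a, at 3.76 ± 0.227 against 5.05 ± 0.0533 FPKM, and Pde10a fell by 0.35 and 0.16. Pde10a lost its call when siCircGigyf2 replicate 3 (adjusted p = 0.0512) or siNC replicate 1 (0.0586) was left out. Of 10 cAMP effectors and CREB family genes, 2 rose and 3 fell. Rapgef2, a Rap exchange factor, was at 15.5 ± 0.255 against 12.1 ± 0.174 FPKM and rose by 0.33, and the transcription factor Creb1, at 13.9 ± 0.333 against 11.5 ± 0.10002 FPKM, rose by 0.25. Its coactivator Crtc1, at 2.82 ± 0.0900 against 3.97 ± 0.475 FPKM, and its relative Atf1 fell by 0.37 and 0.14. The call for Atf1 was lost when siNC replicate 1 (adjusted p = 0.0534) or siNC replicate 2 (0.0502) was left out. Rapgef3, named after its value was seen, fell by 0.24.

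Of 16 genes that CREB can induce, 5 rose and 3 fell (median 0.062), beside 19.5% higher and 18.7% lower over all genes tested. Junb and Fos, of the AP-1 factors, rose by 0.39 and 0.34, whereas Gem, a small GTPase that restrains calcium channels, was at 7.61 ± 0.196 against 12.05 ± 0.903 FPKM and fell by 0.60 in log2(FPKM + 1) (SE 0.0573, adjusted p = 0.000104). Rgs2 is among the 3 falls. Named after their values were seen, Egr1 and Sik1 rose by 0.38 and 0.18 and Dusp1 fell by 0.27, and Pde4b is the remaining rise. Of 8 effectors of Gq, G12/13 and G beta-gamma, 2 rose and 1 fell (37.5%, near the 38.2% of all genes tested). The guanine nucleotide exchange factors Arhgef12 and Arhgef1 are both targets of the G12/13 class. Arhgef12 was at 16.2 ± 0.121 against 13.98 ± 0.330 FPKM and rose by 0.20, and Arhgef1 was at 11.1 ± 0.824 against 14.5 ± 0.694 FPKM and fell by 0.36. Trio, an exchange factor that Gq activates, rose by 0.21.

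Of 18 tested G protein-coupled receptors, 5 rose and 4 fell (median -0.073), beside 19.5% higher and 18.7% lower over all genes tested. Oprd1, the delta opioid receptor of the Gi/o class, was at 5.19 ± 0.0479 against 8.16 ± 0.434 FPKM and fell by 0.57 in log2(FPKM + 1) (SE 0.0539, adjusted p = 0.000101). Gabbr1, a subunit of the GABA-B receptor, was at 12.5 ± 0.436 against 8.80 ± 0.301 FPKM and rose by 0.46 in log2(FPKM + 1) (SE 0.0469, adjusted p = 0.000136). Adora2a, the Gs-coupled adenosine receptor, was at 37.6 ± 0.966 against 49.2 ± 2.81 FPKM and fell by 0.38, while Ptger4, a Gs-coupled prostaglandin receptor, was at 5.29 ± 0.421 against 2.97 ± 0.195 FPKM and rose by 0.66. Receptors of the Gs and of the Gi/o class were thus found on both sides. Named after their values were seen, Adra2b and Gpr6 rose by 0.39 and 0.67, and Adcyap1r1 fell by 0.26, beside F2rl2 given above.

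**Figure D5:**
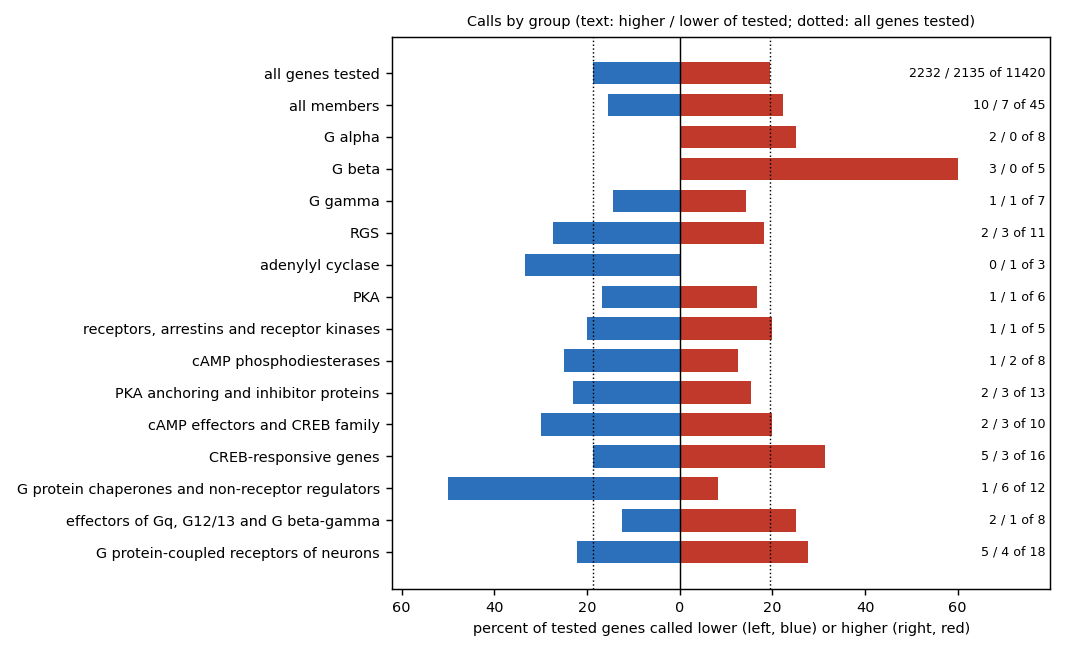
Percent of tested genes called higher (right, red) or lower (left, blue) at an adjusted p of 0.05, for all genes tested, the members, their roles and the 7 other lists (y axis); the text at right gives higher and lower calls of genes tested and dotted lines mark all genes tested. The members as a whole stand near the dotted lines, and the small lists scatter around them.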

How the data were processed

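RNA-seq libraries of 6 samples were compared, 3 siCircGigyf2 and 3 siNC, grouped by the treatment label, with columns matched by title. Libraries were made from rRNA-depleted RNA and read from both ends, per the labels' protocols. The authors deposited 1 table of FPKM by gene symbol; per the submitters' processing notes the build was mm9. The aligner, quantifier, annotation and strand handling are not given in the sources used here, so overlapping genes cannot be separated; 9 of the 17 members that passed overlap another RefSeq gene, most of them predicted or small RNA genes. No count model was used.

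Genes with a mean of at least 1 FPKM entered limma 3.58.1 (R 4.3.3) as log2(FPKM + 1), in a two-sided moderated test of 2 groups whose prior variance followed the mean, with Benjamini-Hochberg adjustment over all 11420 genes and a threshold of 0.05. This scale understates changes of low genes. Members and lists were chosen with earlier results of these data known, and the lists were not tested as sets. Every member that passed was named, with the most abundant of each role and up to 4 genes that passed from each other list. Some genes counted in a list are not reported here by name. The lists matched all but 1 symbol, an alias; Ric8 was matched through RefSeq synonyms. Sites came from the longest coding transcript of each symbol in GENCODE M21 (GRCm38), joined in Python 3.11.15. On simulated data for this comparison, with 200 of 11420 genes changed, the fit recovered 40.3% at 1.2-fold, 74.6% at 1.5-fold and 98.5% at 2-fold, with 7 false among 149 calls. In the real data 38.2% of genes tested passed, so the adjustment works at another cutoff and these rates do not carry over. Further fits used a pseudocount of 0.1, a minimum of 5 FPKM or none, scaling by median-of-ratios or quantiles, blocks by replicate number, a constant or a robust prior variance, and 5 of the 6 libraries.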

Additional observations from a re-analysis of the deposited data

How the results depend on the processing

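Of the 17 members that passed, 13 passed in every alternative run; Gnb1, Rgs7, Adcy6 and Arrb1 did not. The count of members that passed was 14 to 18 with a library left out, and 17 to 21 under the other settings of scaling, filter, pseudocount and variance. Dropping members that hold GCCTACA, an alternative chosen after seeing the data, left 4 that fell in place of 7, and 14 that passed. Because the site was picked for its relation to falls, this loss of falls was built in and says nothing about the site. The members' median difference (0.00047) was -0.019 to 0.043 with a library left out. With no filter on low values 22.0% of all genes tested passed, in place of 38.2%. Of the 67 members then tested, 17 passed (25.4%), and 16 of these had also passed in the main fit. Rgs7 was lost and Gnat2 was added.

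Signs changed for members that did not pass and lie near 0. Prkaca was -0.00092 after median-of-ratios scaling and -0.015 after quantile normalization, and -0.029 to 0.026 with a library left out. Over the same left-out libraries Rgs20 ranged from -0.14 to 0.081, Grk6 from -0.0042 to 0.082, Gnb5 from -0.073 to 0.088, Gng5 from -0.10 to 0.070, Rgs10 from -0.18 to 0.079, Prkar1b from -0.053 to 0.043 and Gng4 from -0.0010 to 0.11. The causes were not tested.

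Same-numbered libraries deviated from their group means with correlations of 0.16, -0.021 and 0.0025, and libraries of different numbers with -0.12 to 0.13. No label says that equal numbers mark a shared culture or day, so the numbers were not taken to pair libraries. With the replicate number as a block, 17 members passed (10 higher, 7 lower), the count without it, and 3973 of all genes in place of 4367. Depth is known only relative to siNC replicate 1, which limits what can be said of genes under 1 FPKM.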
